A study of Mus musculus with 10 samples.

Results

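The pigment genes are 10 genes of melanocyte differentiation and melanin synthesis, Mitf, Tyr, Tyrp1, Dct, Pmel, Mlana, Slc45a2, Oca2, Slc24a5 and Mc1r, chosen by symbol. Of these 10, 9 had a transcript cluster (a set of array probes for 1 gene) of their own, out of 23360 genes named by 1 symbol, and each had exactly 1. All 9 passed the filter on dim genes, as did 16352 genes in all. Slc24a5 was measured only on transcript clusters shared with its neighbour Myef2 and is not counted among the 9.

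Expression was measured on 1 Affymetrix mouse gene array for each of 10 lines of B16OVA, a C57BL/6 B16 melanoma line made to carry ovalbumin (OVA) as its model antigen. The IMM lines (1, 2 and 8) were established from tumours in OVA-immunized B6 mice. The GKO-IMM lines (1, 2 and 3) came from interferon-gamma-deficient mice that had also been OVA-immunized, and the NIMM lines (1, 3 and 4) from naive B6 mice. The parent line had 1 array. On re-challenge of OVA-immunized mice the IMM lines grew progressively, unlike the NIMM and GKO-IMM lines. No line came from naive interferon-gamma-deficient mice, so in GKO-IMM minus NIMM the effects of immunization and of the deficiency cannot be told apart. Whether lines of a group came from separate mice is not given in the sources used here, so the p-values measure only the spread between these lines. In bulk RNA of a line, fewer pigmented cells and less RNA per cell cannot be told apart.

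MITF is the transcription factor that directs melanocyte development and switches on most pigment genes. It binds E-box motifs in their promoters, among them the M-box. MC1R is the melanocortin receptor on the cell surface, which signals through cyclic AMP and raises MITF. Tyrosinase (TYR) carries out the rate-limiting step of melanin synthesis, and TYRP1 and DCT act on later intermediates. PMEL forms the fibrils on which melanin is laid down and MLANA is a melanosomal protein that assists PMEL. SLC45A2, OCA2 and SLC24A5 are transport proteins of the pigment cell that set the ion balance or pH of the melanosome.

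Promoter sequences are shown for 4 members with the M-box core TCATGTG, because MITF is known to act on such sites, and for Oca2. The RefSeq promoter table, on build GRCm38.p6, held 7 of the 10 genes, with windows of 300 bases (250 before the start and 50 after it). TCATGTG was found on either strand in 5 of these 7 (Tyr, Tyrp1, Dct, Mc1r and Slc24a5), against 4.31% of 27025 genes. The shorter CATGTG, which TCATGTG contains, was in 6 of 7, Oca2 being the addition, against 15.9% of genes. CACGTG was in 0 of 7 and in 8.09% of genes, which says only that these letters are not in these windows. Mitf had 3 promoters in the table, with none of the 3 motifs. A match is a description of the letters, not a binding site. The 250 bases before the start are given 5′ to 3′ on the gene's strand, with capitals at TCATGTG on either strand (CACATGA when it lies on the opposite strand); in Oca2 the capitals mark CACATG, which is CATGTG on the opposite strand.
Tyr, chr7:87493513-87493762, minus strand: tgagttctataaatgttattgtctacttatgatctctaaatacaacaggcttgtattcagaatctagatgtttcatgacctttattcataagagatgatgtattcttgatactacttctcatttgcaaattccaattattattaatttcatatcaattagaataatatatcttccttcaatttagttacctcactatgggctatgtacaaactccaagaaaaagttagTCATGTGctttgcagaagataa
Tyrp1, chr4:80833963-80834212, plus strand: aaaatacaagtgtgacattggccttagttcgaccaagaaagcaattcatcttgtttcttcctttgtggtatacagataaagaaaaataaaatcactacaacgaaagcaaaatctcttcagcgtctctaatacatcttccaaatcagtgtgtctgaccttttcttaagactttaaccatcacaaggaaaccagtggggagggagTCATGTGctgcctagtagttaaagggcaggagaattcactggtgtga
Dct, chr14:118052247-118052496, minus strand: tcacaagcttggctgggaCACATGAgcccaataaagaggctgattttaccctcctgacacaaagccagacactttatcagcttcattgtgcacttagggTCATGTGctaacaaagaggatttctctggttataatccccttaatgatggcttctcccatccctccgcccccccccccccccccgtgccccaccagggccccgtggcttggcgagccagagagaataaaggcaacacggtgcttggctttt
Mc1r, chr8:123406832-123407081, plus strand: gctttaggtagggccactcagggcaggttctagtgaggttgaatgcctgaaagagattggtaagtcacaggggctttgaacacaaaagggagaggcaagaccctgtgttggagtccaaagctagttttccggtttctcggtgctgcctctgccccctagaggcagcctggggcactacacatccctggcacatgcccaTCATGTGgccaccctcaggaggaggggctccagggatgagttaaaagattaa
Oca2, chr7:56239509-56239758, plus strand: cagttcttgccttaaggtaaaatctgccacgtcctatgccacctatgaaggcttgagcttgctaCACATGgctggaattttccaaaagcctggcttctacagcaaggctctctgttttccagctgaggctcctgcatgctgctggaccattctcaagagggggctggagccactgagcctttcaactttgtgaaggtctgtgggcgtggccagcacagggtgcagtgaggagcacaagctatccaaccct
TCATGTG began 22 bases before the start in Tyr, 47 in Tyrp1 and 52 in Mc1r. The start is the one used for the promoter window. In Tyrp1 and Oca2 that window runs past the start of the gene position given below (80834123 and 56239593). Distances for these 2 genes are therefore not counted from that position. In Dct it began 151 bases before the start, with another on the opposite strand at 232. Slc24a5 had it 13 bases before the start on the opposite strand (its promoter is not printed), and in Oca2 the shorter CATGTG lay 186 bases before the start. Oca2 is printed because its level varied most between lines, a choice made after its values were seen.

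Intensities are linear, with array medians between 31.9 and 32.5 and the highest intensity of each array between 8678 and 8957. Levels of different genes are not set against each other, because each probe set has its own brightness. Of 25 markers of T cells, macrophages and leukocytes, fibroblasts, endothelium and keratinocytes, 23 had a row of their own and 10 of those lay under the filter. The T cell markers Cd3e, Cd3g, Cd8a and Cd4 were all under it. Cd68 was highest, at 47.2 to 78.3 in the established lines and 145.7 in the parent, and the next highest, Col1a2, reached 57.8. The 7 other melanocyte markers (Sox10, Pax3, Kit, Ednrb, Gpr143, Trpm1 and Gpnmb) were all past the filter, although Ednrb, an endothelin receptor of melanocyte precursors, passed only by its mean: it was 26.6 to 30.5 over the lines, with the filter at 26.7. The filter lies below the array medians, so passing it does not show expression. Dim markers of other cells passed it too, among them Krt14 of keratinocytes (24.1 to 32.3). Summed macrophage and leukocyte markers spanned 188.0 to 201.7 in IMM, 176.2 to 198.2 in GKO-IMM and 181.1 to 217.7 in NIMM lines, overlapping between groups. Summed fibroblast markers (200.6 to 218.7, 200.8 to 209.3 and 199.9 to 207.8 in the same order of groups) and keratinocyte markers (84.1 to 95.6, 85.4 to 92.6 and 81.3 to 87.2) overlapped as well. Endothelium markers summed to 124.8 to 127.4 in IMM lines, above the 123.0 to 124.6 of GKO-IMM and the 119.0 to 123.3 of NIMM lines. T cell markers, all under the filter, summed to 94.9 to 96.3 in IMM, 93.2 to 102.8 in GKO-IMM and 97.6 to 100.4 in NIMM lines, so that IMM lay below NIMM. None of the markers past the filter passed in any contrast in limma. The 10 under the filter, the T cell markers among them, were not tested. In IMM against the average of NIMM and GKO-IMM, 3 of the 4 fibroblast markers tested had an unadjusted p under 0.05, against 16.4% of genes. The fibroblast markers went both ways. Pdgfra was 35.0, 43.2 and 40.0 in IMM lines, against 32.0 to 35.5 in the other established lines, and Col3a1 was higher in every IMM line. Col1a2 was 45.5, 50.7 and 38.6, against 48.1 to 54.6, and Col1a1 overlapped. The part of other cells in the results was not tested.

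Mitf, on chromosome 6 (chr6:97807002-98021360 in build GRCm38.p6), had intensities of 1965, 1656 and 1722 in IMM 1, 2 and 8. In the GKO-IMM lines it was 1524, 1457 and 1512, in the NIMM lines 1912, 1784 and 1360, and in the parent 1882. Every IMM line lay above every GKO-IMM line, whereas NIMM 4 was the lowest of all 10 lines and the other NIMM lines were among the highest. The range within NIMM (0.49 log2) was larger than that within IMM (0.25) or GKO-IMM (0.07).

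Mc1r (chr8:123407082-123410744) gave 1090, 849.8 and 994.7 in IMM 1, 2 and 8, against 751.5, 780.4 and 782.8 in the GKO-IMM lines. NIMM 1, 3 and 4 stood at 1181, 1063 and 834.4, and the parent at 1049. The 3 GKO-IMM lines were the lowest of all 10 lines, and NIMM 4 was the lowest outside them.

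Tyr (chr7:87424771-87493512) was measured at 1504, 1042 and 1313 in the IMM lines 1, 2 and 8. The GKO-IMM lines gave 1114, 1179 and 1106, the NIMM lines 1231, 1160 and 962.1, and the parent 1189. IMM 1 and IMM 8 were the highest of the 10 lines, while IMM 2 was lower than every line except NIMM 4, so the IMM group spans most of the range of Tyr in the series. Its range within IMM was 0.53 log2, against a median of 0.156 over all genes tested, and it ranked 337 of 16352.

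Tyrp1 (chr4:80834123-80851736) varied least, from 6041 in GKO-IMM 2 to 6280 in GKO-IMM 3, a highest-to-lowest ratio of 1.04. Its IMM values were 6258, 6069 and 6154. Dct (chr14:118012790-118052246) reached 8362, 7646 and 7822 in IMM 1, 2 and 8, against 7849, 7391 and 7797 in GKO-IMM and 7637, 7663 and 7718 in NIMM lines. Its ratio of highest to lowest was 1.13. The arrays' highest intensities lay between 8678 and 8957, so Dct and Tyrp1 were read near the top of the scale; whether this narrowed their range was not tested.

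Pmel (chr10:128695888-128720238) was 5309, 4939 and 5277 in IMM lines, 4818, 4972 and 5049 in GKO-IMM lines and 5185, 5181 and 4841 in NIMM lines, with 4943 in the parent. The groups overlapped throughout. Mlana (chr19:29697541-29708447) gave 5285, 5138 and 5057 in IMM lines, against 5522, 5327 and 5517 in GKO-IMM and 5134, 5090 and 5170 in NIMM lines. All 3 GKO-IMM lines lay above every IMM, NIMM and parent array (5215 in the parent), by a small margin.

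Slc45a2 (chr15:11000721-11029233) was measured at 4046, 3203 and 3808 in IMM 1, 2 and 8. The GKO-IMM lines gave 3327, 3392 and 3372 and the NIMM lines 3451, 3369 and 3255. The parent, at 3054, was below all 9 established lines. This was the 1 member of 9 for which the parent lay outside the range of the established lines. Among all genes tested this held for 25.9%, with the parent higher for 12.4% and lower for 13.5%; the mean of the established lines was 0.18 log2 above the parent.

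Oca2 (chr7:56239593-56536518) was the member that varied most, with a highest-to-lowest ratio of 2.78. IMM 1 gave 605.8, but IMM 2 gave 260.9 and IMM 8 gave 280.5. The GKO-IMM lines were 708.8, 725.7 and 725.1 and the NIMM lines 525.1, 551.0 and 526.8, with 527.6 in the parent. IMM 2 and IMM 8 were thus below all other lines, and IMM 1 lay between the NIMM and the GKO-IMM lines. Within IMM the range was 1.22 log2, which ranked 15 of 16352 genes, against 0.03 in GKO-IMM and 0.07 in NIMM lines.

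Slc24a5 could be read only from transcript clusters that it shares with Myef2. The first gave 3780, 3044 and 3486 in IMM, 3429, 3253 and 3328 in GKO-IMM and 3241, 3272 and 3294 in NIMM lines, and the second 485.5, 535.8 and 503.8 in IMM, 484.8, 492.4 and 420.1 in GKO-IMM and 418.3, 457.9 and 423.7 in NIMM lines. Which gene of the pair these intensities come from cannot be told apart.

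**Figure D1:**
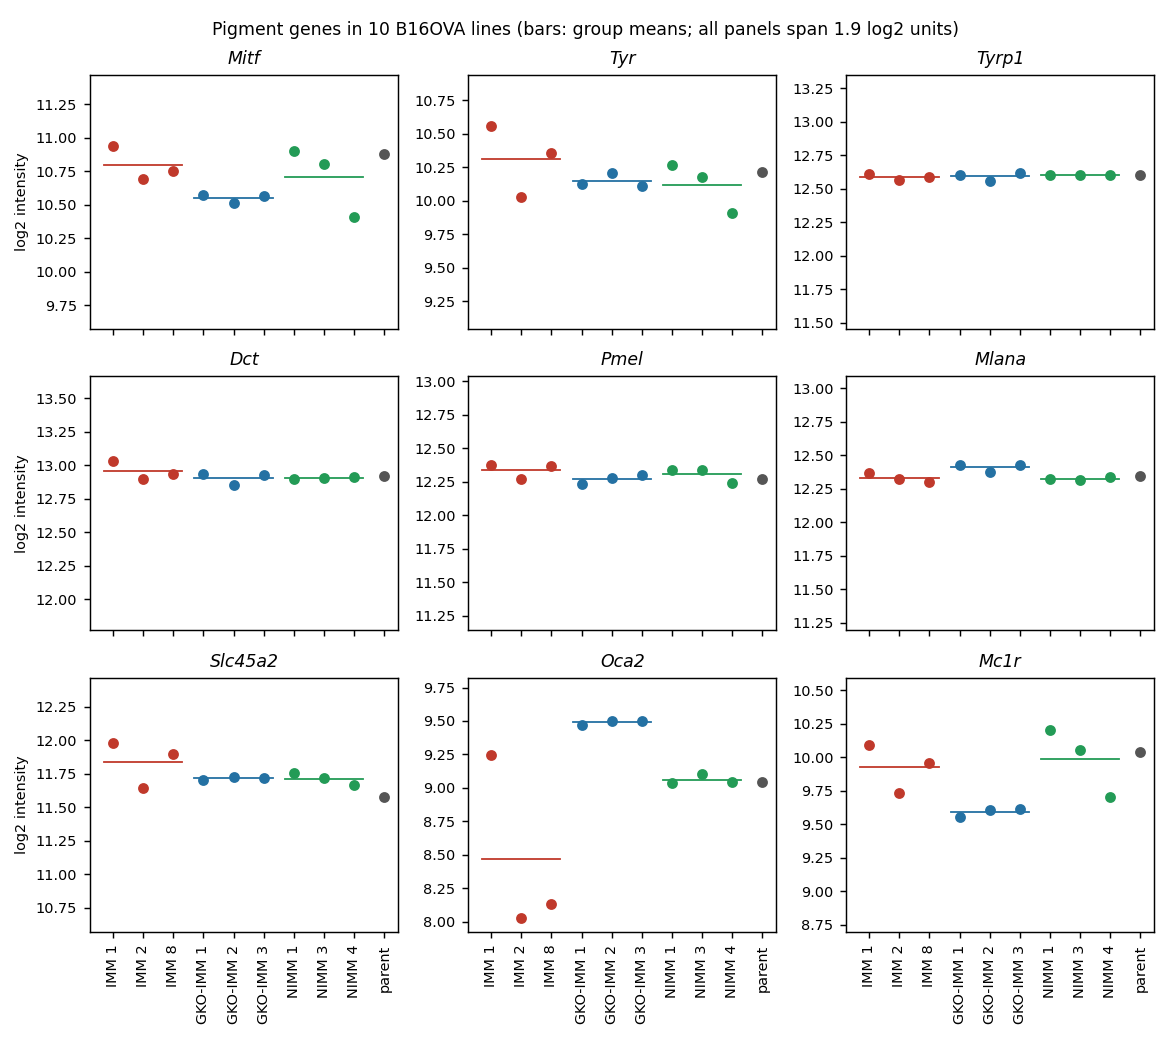
Log2 intensity of 9 pigment genes in IMM, GKO-IMM, NIMM and parent lines, 1 point for each array, with bars at the group means and panels spanning an equal number of log2 units. Oca2 stands at 260.9 and 280.5 in IMM 2 and IMM 8 on the linear scale and at 525.1 or more in the other lines, while Tyrp1 spans a ratio of only 1.04.

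Within the IMM group, line by line, IMM 1 was the highest of the 3 IMM lines for 9 of 9 members. Among all genes tested IMM 1 was the highest of the 3 for 32.5%, and among the 1999 genes with a mean intensity of 500 or more for 36.5%. IMM 2 was the lowest of the 3 for 8 of 9 members, Mlana being lowest in IMM 8, against 34.2% of all genes tested and 37.5% of those brighter genes. After quantile normalization the first count was 7 of 9 and the second 8 of 9; with array medians centred they were 9 and 8. The order was noticed in these data, so its counts are descriptions. The gap between IMM 1 and the lowest IMM line was 1.22 log2 for Oca2, 0.53 for Tyr, 0.36 for Mc1r, 0.34 for Slc45a2 and 0.25 for Mitf. For Dct, Pmel, Mlana and Tyrp1 it was 0.13, 0.10, 0.06 and 0.04, below the median of 0.156 over all genes.

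Across the 9 established lines, IMM 1 had the highest value of 5 members (Mitf, Tyr, Dct, Pmel and Slc45a2) and lay above the median of the lines for 9. IMM 8 lay above it for 6 and IMM 2 for 0. NIMM 4 also lay above it for 0, with the lowest Mitf and Tyr of the lines, whereas NIMM 1 did so for 6. The spread within groups placed Oca2 at percentile 99.5 of the within-group SD of all genes tested, Tyr at 94.4, Mc1r at 93.6 and Mitf at 91.6. Tyrp1 and Mlana lay at percentiles 0.177 and 0.471. Both were bright, at 5057 or more in every line, and whether this narrowed their spread was not tested.

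IMM was compared with NIMM to ask which pigment genes differ after growth in immunized hosts. No member passed an adjusted p of 0.05 in limma (0 of 9), against 0.428% of all genes tested. At an unadjusted p under 0.05 there was 1 member, Oca2, against 14.1% of genes. The IMM values overlapped the NIMM values for every member (0 of 9 without overlap, against 18.6% of genes, of which 11.3% were higher and 7.25% lower in IMM). Oca2 differed by -0.59 ± 0.24 log2 (SE, n = 3 lines each, 95% interval -1.12 to -0.07, limma adjusted p = 0.307). The size depended on the line left out: without IMM 1 the Oca2 difference was -0.98 (limma adjusted p = 0.000477), without IMM 2 it was -0.37 (0.503) and without IMM 8 it was -0.43 (0.568). Tyr differed by 0.19 ± 0.12 (interval -0.08 to 0.47, limma adjusted p = 0.5), Slc45a2 by 0.13 ± 0.08 (interval -0.05 to 0.30) and Mitf by 0.09 ± 0.11 (interval -0.16 to 0.34). Mc1r differed by -0.06 ± 0.12 (interval -0.33 to 0.20). The median difference of the members was 0.03, beside 0.02 for all genes.

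IMM was compared with GKO-IMM to ask about host interferon-gamma under the same immunization. Again 0 of 9 members passed in limma, against 1.17% of all genes tested. Those with an unadjusted p under 0.05 were 2 members, Oca2 and Mc1r, against 17.2% of genes. The groups did not overlap for 4 of 9 members, against 25.8% of genes. Mitf and Mc1r were higher in every IMM line (13.3% of genes were), and Mlana and Oca2 were lower (12.5% of genes). Oca2 was 2.03-fold lower in the IMM lines, a difference of -1.02 ± 0.24 log2 (interval -1.55 to -0.50, limma adjusted p = 0.0673). This call depended on the lines in the fit, since the adjusted p was 0.0415 with only the IMM and GKO-IMM arrays and 0.0249 without NIMM 4. Without IMM 1 the difference was -1.41 with a limma adjusted p of 1.35e-05; without IMM 2 it was -0.80 (0.112) and without IMM 8 it was -0.86 (0.216). Mc1r was 0.34 ± 0.12 log2 higher (interval 0.07 to 0.60, limma adjusted p = 0.189). It passed with only the IMM and GKO-IMM arrays (limma adjusted p = 0.0499) and with array weights (0.0363). It also passed without NIMM 4 (0.0372), but not with any other line left out. NIMM 4 enters this contrast only through the estimate of the spread, which the groups share. Over all lines left out in turn the Mc1r difference spanned 0.25 to 0.43. For Mitf the difference was 0.25 ± 0.11 (interval -0.001 to 0.49, limma adjusted p = 0.292) and for Mlana -0.08 ± 0.05 (interval -0.20 to 0.04). The median size of the members' differences was 0.125, against 0.076 over all genes. It was 0.062 against 0.076 for IMM minus NIMM and 0.035 against 0.075 for GKO-IMM minus NIMM. For IMM against the average of NIMM and GKO-IMM it was 0.126 against 0.069.

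**Figure D2:**
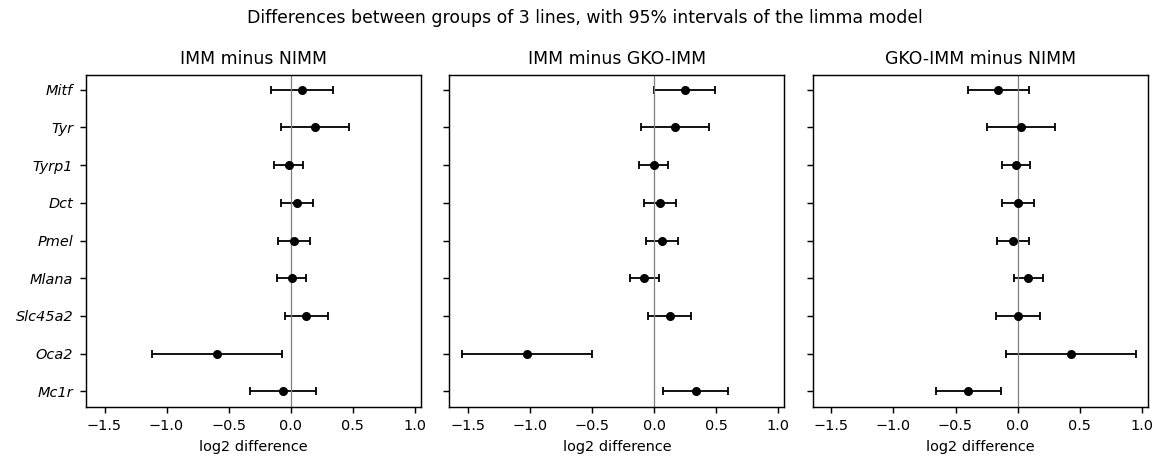
Log2 differences of 9 pigment genes in 3 panels, IMM minus NIMM on the left, then IMM minus GKO-IMM, then GKO-IMM minus NIMM (points) with the 95% intervals of the limma model (bars), from 3 lines in each group. Oca2 has the widest intervals, -1.55 to -0.50 for IMM minus GKO-IMM, and none of the members passed the adjusted p.

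Between GKO-IMM and NIMM, 0 of 9 members passed in limma, against 0.122% of genes. Mc1r was the 1 member with an unadjusted p under 0.05, against 13.9% of genes. Groups without overlap were found for 3 of 9 members, against 19.5% of genes. Mlana and Oca2 were higher in every GKO-IMM line (11.1% of genes were), and Mc1r was lower (8.37% of genes). Mc1r differed by -0.40 ± 0.12 log2 (interval -0.66 to -0.13, limma adjusted p = 0.204), and without NIMM 4 by -0.54 with an adjusted p of 0.00817, but without NIMM 1 by -0.29 (0.515). Mitf differed by -0.16 ± 0.11 (interval -0.40 to 0.09, limma adjusted p = 0.567), and without NIMM 4 by -0.30 (limma adjusted p = 0.0419). Without NIMM 1 the Mitf difference was -0.06 (limma adjusted p = 0.914) and without NIMM 3 it was -0.11 (0.832). Oca2 differed by 0.43 ± 0.24 (interval -0.09 to 0.95, limma adjusted p = 0.447), which passed without IMM 1 (adjusted p = 0.027) and with only the GKO-IMM and NIMM arrays (adjusted p = 0.0371). The fit shares 1 estimate of the spread over the 3 groups. The SD of Oca2 was 0.674 log2 in IMM, 0.019 in GKO-IMM and 0.039 in NIMM lines. The ± 0.24 and the p of 0.447 thus carry the spread of IMM lines, which are not in this contrast.

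In the contrast that follows growth on re-challenge, IMM against the average of NIMM and GKO-IMM, 0 of 9 members passed in limma, against 0.807% of genes. The members with an unadjusted p under 0.05 numbered 1, Oca2, against 16.4% of genes. In 0 of 9 members were all IMM lines beyond all 6 other lines, against 6.79% of genes (3.84% higher and 2.95% lower). Oca2 differed by -0.81 ± 0.21 log2 (interval -1.26 to -0.36, limma adjusted p = 0.104), and without IMM 1 by -1.20 (adjusted p = 2.3e-05); without IMM 2 it was -0.59 (0.201). Tyr, Mitf and Slc45a2 had differences of 0.18, 0.17 and 0.13, with intervals that spanned 0. With each line left out in turn Tyr spanned 0.06 (without IMM 1) to 0.33 (without IMM 2), Mitf 0.09 (without NIMM 4) to 0.22 (without IMM 2) and Slc45a2 0.06 (without IMM 1) to 0.22 (without IMM 2). These contrasts share their IMM, GKO-IMM or NIMM lines, so their values for a member are not independent of each other.

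Because MITF acts on the other genes, Mitf was set against each of the 8 other members across the 10 lines, giving 8 relations. Mc1r followed Mitf most closely (Pearson r = 0.891, permutation p = 0.00166, adjusted p = 0.0133; Spearman rho = 0.867, permutation p = 0.00216, adjusted p = 0.0173). Without NIMM 4 and IMM 1, the lines farthest from the median of Mitf, r was 0.957 (exact permutation p = 0.00057). Tyr had r = 0.735 (permutation p = 0.0122, adjusted p = 0.0488) and rho = 0.758 (permutation p = 0.015, adjusted p = 0.0602). Without NIMM 4 and IMM 1 its r was 0.427 (exact permutation p = 0.295). Leaving out the extremes of Mitf also narrows its range, so the lower r cannot tell whether the relation rests on those lines. Pmel had r = 0.692 (permutation p = 0.0321, adjusted p = 0.0857; rho = 0.648, permutation p = 0.0498). The other 5 members lay between r = -0.397 for Mlana and r = 0.435 for Dct, with adjusted p of 0.405 or more. In Oca2 r was -0.219.

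The lines lay apart in the whole data, which bears on these relations. The first principal component held 36.7% of the variance and placed NIMM 4 at 15.04 and the GKO-IMM lines at 10.9 to 12.5, against -11.1 to -5.82 for the other 6 lines. The 4 lines with high scores were also the 4 with the lowest Mitf. Among the 6 other lines the relation of Mc1r to Mitf was r = 0.852 (exact permutation p = 0.0194), and of Tyr to Mitf r = 0.673 (exact permutation p = 0.14). In those 6 lines Oca2 gave r = 0.888 (exact permutation p = 0.0139) and Tyrp1 r = 0.897 (exact permutation p = 0.00833), unlike in all 10 lines. Mlana gave r = 0.698 (exact permutation p = 0.132) there, and -0.724 (exact permutation p = 0.0499) in the 8 lines without NIMM 4 and IMM 1, so its sign depended on the lines taken. The p-values over these subsets were not adjusted. With group means subtracted over the 9 established lines, r was 0.939 for Mc1r and 0.806 for Tyr, each with an exact permutation p of 0.0231 and an adjusted p of 0.0617, 0.37 for Tyrp1 (exact permutation p = 0.0185, adjusted p = 0.0617) and 0.185 for Mlana, where 0.00463 is the smallest p possible. All values of a line come from 1 array, so its scaling is shared by both genes.

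**Figure D3:**
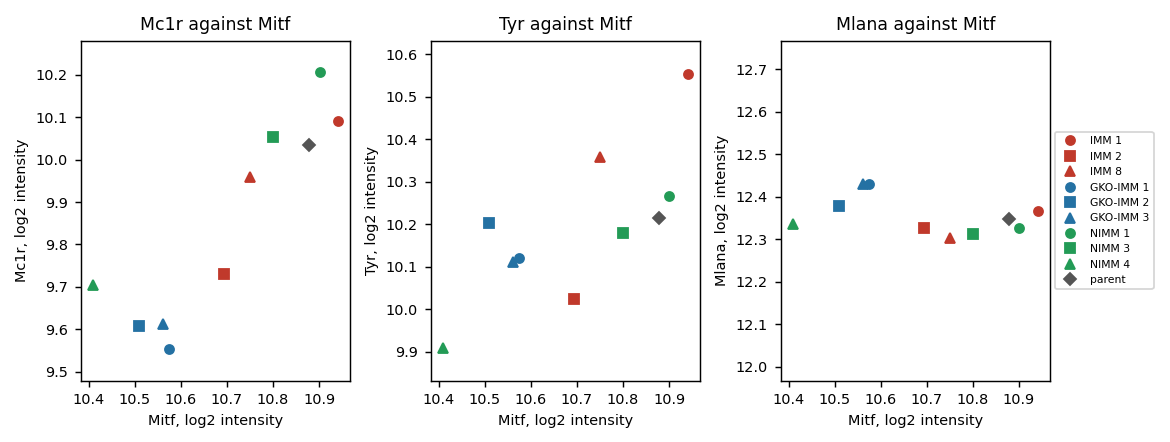
Log2 intensity of Mc1r, Tyr and Mlana against that of Mitf, with 1 point for each of the 10 lines, coloured by group. Mc1r follows Mitf at r = 0.891 and Tyr at r = 0.735, and Mlana at r = -0.397.

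Genes most like Mitf over the 10 lines, by Pearson r among 8001 genes with an SD of at least 0.1 log2, were Tmem51 (0.973), Rad51ap1 (0.969), Lima1 (0.965), Kpna3 (0.963) and Rpa2 (0.962). Of these, Rad51ap1 and Rpa2 encode proteins of DNA repair, Lima1 an actin-binding protein and Kpna3 a nuclear import factor. Mc1r, the pigment gene closest to Mitf, ranked 130. For Tyr the 5 genes were Hacd2 (0.993), Ubl7 (0.946), Sema7a (0.943), Ano3 (0.926) and Plekha8 (0.924). The pigment gene most like Tyr was Slc45a2, at 0.799 and rank 119. Over 8001 genes and 10 lines these are descriptions and carry no test.

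Oca2 was then set beside neighbours on chromosome 7, the 4 protein-coding genes before it and the 2 after it that had a row, a choice made after the values of Oca2 were seen. In IMM 2 and IMM 8 Oca2 lay at -1.05 and -0.94 log2 from its median over the 10 lines, and in IMM 1 at 0.17. Herc2, the adjoining gene, gave 120.7, 132.5 and 122.6 in IMM lines, against 153.4, 164.2 and 179.3 in GKO-IMM and 130.5, 134.7 and 158.2 in NIMM lines. Its lowest IMM value was in IMM 1, so it did not follow Oca2 within IMM. The difference of Herc2 from GKO-IMM was -0.40 (limma adjusted p = 0.0506). Cyfip1, Nipa2 and Nipa1 lay within 0.232 log2 of their medians in every line. Gabrg3 and Gabra5 were under the filter. Tyr is also on chromosome 7, at a distance from Oca2, and was low in IMM 2 but not in IMM 8.

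**Figure D4:**
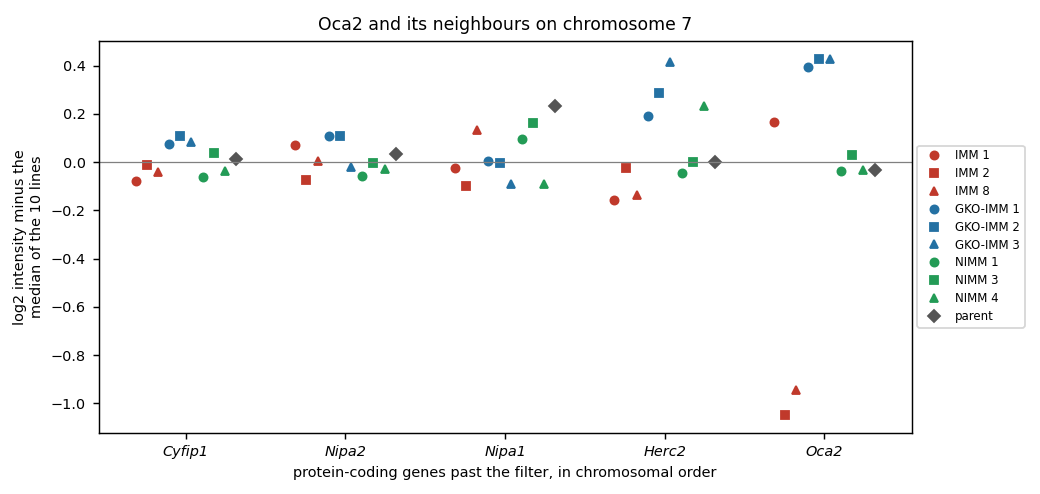
Log2 intensity minus the median of the 10 lines for Oca2 and those of its 6 neighbours past the filter, in chromosomal order, with 1 point for each line. Of the genes shown, Oca2 alone has points near -1, from IMM 2 (-1.05) and IMM 8 (-0.94).

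Other genes of the pigment cell were counted from lists chosen by function. For melanosome assembly and transport, 26 of 26 genes were tested and 0 passed in any of the 4 contrasts, where 0.122% to 1.17% of all genes passed. At such shares a list of this size can give 0 without differing from all genes. For IMM minus GKO-IMM, 6 of the 26 had an unadjusted p under 0.05 in limma, against 17.2% of genes. The 4 with the smallest p for IMM minus GKO-IMM were Gpr143, Hps5, Atp7a and Rab38. Gpr143, a melanosomal receptor, gave 443.1, 346.7 and 388.7 in IMM lines and 298.8, 296.5 and 300.7 in GKO-IMM lines (difference 0.39 ± 0.10 log2, limma adjusted p = 0.0912), so the groups did not overlap. Hps5, of a lysosome-related organelle complex, differed by -0.21 (adjusted p = 0.0964), Atp7a, the copper transporter that supplies tyrosinase, by 0.35 (0.116), and Rab38, a small GTPase of melanosome transport, by -0.25 (0.142). The median of the list was 0.04 in that contrast, beside 0.01 for all genes.

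Of 24 lineage factors and signals, 21 had a row of their own and 17 were tested. In IMM against the average of NIMM and GKO-IMM 1 passed, Snai2, a transcription factor of neural crest cells, at -0.41 ± 0.08 log2 (limma adjusted p = 0.0392), in a contrast where 0.807% of all genes passed. Against NIMM alone its adjusted p was 0.0961 and against GKO-IMM alone 0.0538. The call held in 10 of 20 other settings and in 2 of the 9 that leave out a line (without NIMM 1 and without NIMM 4), with differences of -0.46 to -0.33 and adjusted p of 0.00861 to 0.144. With the line number as a block it was -0.33 (adjusted p = 0.142). Snai2 was 372.2, 377.4 and 394.2 in IMM lines, against 503.2, 498.8 and 524.8 in GKO-IMM and 430.4, 513.2 and 575.1 in NIMM lines. Kit, the receptor of stem cell factor that melanocytes need, gave 602.9, 494.2 and 529.7 in IMM, 325.0, 313.8 and 343.2 in GKO-IMM and 714.4, 661.2 and 323.5 in NIMM lines, with 451.2 in the parent. NIMM 4 lay with the GKO-IMM lines, as it did for Mitf. Its difference between IMM and GKO-IMM was 0.72 ± 0.23 (limma adjusted p = 0.14). Sox10 and Pax3, the factors that act on Mitf, differed by 0.12 and -0.03 in that contrast.

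Of 20 further reported MITF targets, mostly from human melanoma cells, 18 were tested and 0 passed in any of the 4 contrasts. Of all genes, 0.122% to 1.17% passed, so a count of 0 does not set the list apart. An unadjusted p under 0.05 in limma was reached by 5 of the 18 for IMM minus GKO-IMM, against 17.2% of genes. For IMM minus NIMM it was reached by 0, against 14.1%. Ppargc1a, a regulator of mitochondrial genes, was 876.6, 431.8 and 773.7 in IMM, 387.1, 440.1 and 416.5 in GKO-IMM and 737.6, 674.6 and 379.2 in NIMM lines. IMM 2 lay with the GKO-IMM lines and NIMM 4, and the difference of IMM from GKO-IMM was 0.68 ± 0.27 (limma adjusted p = 0.218). Trpm1, a cation channel of melanocytes named after its values were seen, gave 73.3, 42.6 and 51.9 in IMM lines, against 69.1, 65.8 and 69.7 in GKO-IMM and 58.9, 63.1 and 67.1 in NIMM lines. Its lowest values were those of IMM 2 and IMM 8, as for Oca2, and Trpm1 too is on chromosome 7. It was not among the neighbours set beside Oca2, and a link between the 2 genes was not tested. Of 10 markers of undifferentiated melanoma, 8 were tested and 0 passed in any of the 4 contrasts, beside the same shares of all genes. An unadjusted p under 0.05 was reached by 1 of the 8 for IMM minus GKO-IMM, against 17.2% of genes. For IMM minus NIMM it was reached by 2, against 14.1%. Axl, a receptor kinase of that state, was 162.7, 170.5 and 136.2 in IMM, 192.1, 180.9 and 190.0 in GKO-IMM and 193.1, 194.3 and 186.9 in NIMM lines, and the difference of IMM from NIMM was -0.30 ± 0.08 (limma adjusted p = 0.159). The list went both ways in that contrast: Egfr, a growth factor receptor, differed by 0.18 ± 0.08 (limma adjusted p = 0.341), Sox9 by 0.03 ± 0.18 and Ngfr by -0.12 ± 0.08.

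**Figure D5:**
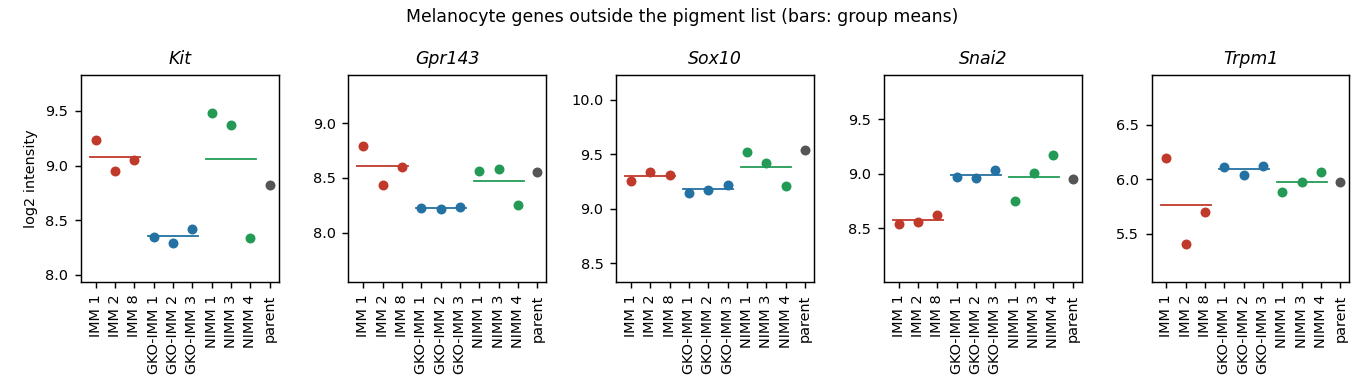
Log2 intensity of Kit, Gpr143, Sox10, Snai2 and Trpm1 in IMM, GKO-IMM, NIMM and parent lines, 1 point for each array with bars at the group means. Kit is lowest in the GKO-IMM lines and NIMM 4 (323.5 on the linear scale), and Snai2 is lower in all 3 IMM lines than in every other line.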

How the data were processed

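Each of 10 B16OVA lines had 1 Affymetrix array. Trizol was used for the RNA and cRNA was labelled with biotin, per the labels. Per the file headers, the deposited intensity columns are raw values, linear and summarized per transcript cluster; the deposited normalized columns are log2 values, each equal to log2 intensity minus the median of its transcript cluster (largest difference 2.23e-06). How background was corrected and probes summarized, and with which software, is not given in the sources used here.

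Log2 intensities were analysed without further normalization. Each of 23360 genes with 1 symbol was represented by its brightest transcript cluster on average in the 9 established lines, and genes under percentile 30 of that mean (intensity 26.7) were left out, which left 16352. Positions and promoters are those of RefSeq on build GRCm38.p6. The 9 established lines were fitted in 3 groups of 3 with limma 3.58.1 (lmFit, eBayes) in R 4.3.3. Residual degrees of freedom were 6; precision is limited by the small number of arrays. Differences are on the log2 scale and p-values are two-sided. The threshold was 0.05 for p adjusted over all 16352 genes by Benjamini-Hochberg. Permutation tests used 100000 resamples for 10 lines and were exact for fewer. Python 3.11.15 was used otherwise. The fit was also tested on simulated data, with IMM lines changed in 200 genes. At a change of 1 log2, 98% to 99% of these genes were recovered and 5.77% to 6.67% of the calls were false. At 0.5 log2, 76.5% to 84.5% were recovered. Each simulated gene had the same spread in all 3 groups. This does not hold for Oca2, so the simulation does not bear on its calls.

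The members and lists were chosen with earlier results of these data known. All members are named in every contrast. From each list up to 4 genes with the smallest p in IMM minus GKO-IMM or IMM minus NIMM were eligible, and for Mitf and Tyr the 5 genes with the highest r. Since Slc24a5 had no row of its own, 8 relations with Mitf were tested rather than 9. The line numbers that groups share are not stated to pair lines, and same-numbered lines correlated at -0.135 to 0.12 in their deviations from the group means, so no pairing was used. The alternatives were quantile normalization, centred medians, other filters, offsets, priors and array weights, the lines compared only, the line number as a block, and each line left out. Quantile normalization and centring for the order of the IMM lines, and all alternatives for Snai2, were added after seeing the data. Some genes near Oca2 are not reported here.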

Additional observations from a re-analysis of the deposited data

How the results depend on the processing

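Of 747 alternative values of 36 single-gene differences over 21 settings, 697 kept direction and side of the threshold, 15 came to pass and 35 changed sign. The count of members past the test was 0 in each contrast; with array weights it was 2 for IMM minus GKO-IMM and 1 for GKO-IMM minus NIMM, with only the arrays compared 2 and 1, and with the line number as a replicate block 1 for GKO-IMM minus NIMM (Mc1r, -0.50, limma adjusted p = 0.02). The block moved Oca2 for IMM minus NIMM to -0.22 (limma adjusted p = 0.847) but changed no other member's call, and the numbers do not pair the lines. Leaving out each line in turn gave 0 to 1 for IMM minus NIMM, 0 to 2 for IMM minus GKO-IMM, 0 to 2 for GKO-IMM minus NIMM and 0 to 1 for IMM minus both. Relations with Mitf past the test numbered 2, against 1 with centred medians, 0 with group means subtracted and 1 to 3 with a line left out. The cause was not tested for these changes.

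All sign changes outside the leaving out of lines were near 0. For IMM minus NIMM these were Tyrp1 at 0.0232 (quantile) and 0.0106 (block) and Mlana at -0.0082 (centred). For IMM minus GKO-IMM, Tyrp1 was 0.0411 (quantile), 0.0031 (array weights) and 0.0063 (block). For GKO-IMM minus NIMM, Tyr was -0.0306 (array weights) and -0.0272 (block), Tyrp1 0.0042 (block), Dct -0.0357 (quantile), -0.0067 (centred) and -0.0035 (array weights), and Slc45a2 -0.0344 (quantile), -0.0045 (centred) and -0.0105 (array weights). For IMM minus both, Tyrp1 was 0.0322 (quantile) and 0.0084 (block). With each line left out, signs changed for IMM minus NIMM in Mitf (-0.0563 to 0.189), Pmel (-0.0029 to 0.0632), Mlana (-0.0096 to 0.0222) and Mc1r (-0.204 to 0.0469), for IMM minus GKO-IMM in Tyrp1 (-0.0207 to 0.0073), for GKO-IMM minus NIMM in Tyr (-0.0773 to 0.1002), Tyrp1 (-0.0231 to 0.0049), Dct (-0.0154 to 0.028) and Slc45a2 (-0.0195 to 0.0228), and for IMM minus both in Tyrp1 (-0.0215 to 0.0006).

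Over all genes the calls numbered 70, 191, 20 and 132 in the 4 contrasts, in the order of the leave-one-out counts above. They were 167, 1037, 1217 and 265 with array weights, 29, 586, 915 and 88 with the block, 33, 91, 9 and 82 with no filter, 45, 213, 7 and 131 with the filter at percentile 50, 49, 205, 6 and 143 with 16 added, 70, 90, 14 and 52 with 15 subtracted, and 13, 976 and 17 in the first 3 with only the arrays compared. Leaving out each line gave 21 to 76, 30 to 1208, 6 to 1264 and 39 to 304. With 3 lines in each group and 1 array a line, the intervals of Oca2, Tyr, Mc1r and Mitf are wide. Those of Oca2 carry its spread within IMM in every contrast.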
